A study of Arabidopsis thaliana with 4 samples.

Results

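Plant hormones are small molecules or secreted peptides that set growth and defence, and each is handled by gene families that make it, sense it and respond to it. Auxin is made by YUC flavin monooxygenases, acts by removing the Aux/IAA repressors of auxin response, and is inactivated in part by GH3 enzymes, which join it to amino acids. Cytokinin signals through response regulators, ethylene through the transcription factor EIN3, and RALF (rapid alkalinization factor) peptides through receptor kinases at the cell wall.

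The hormone genes described here were chosen by gene symbol, from 30 prefixes of hormone gene families. Of these prefixes, 6 had a gene named alone by a probe set (a group of probes for 1 transcript), which gave 25 genes out of 13350 named in this way, each with 1 probe set. They were 7 Aux/IAA genes, 4 YUC genes, the response regulator ARR15, EIN3, 11 RALF-like genes and 1 gene with the bare symbol ACS. The gene table describes that ACS gene (AT5G36880) as acetyl-CoA synthetase, an enzyme of central metabolism. The ACC synthases of ethylene synthesis, which share the prefix, are thus not represented, and 24 genes bear on hormones. The ACS gene is still counted among the 25 hormone genes below unless stated. The other 24 prefixes, among them those of the PIN transporters, the gibberellin oxidases and the JAZ repressors, had no such gene and were not analysed here. Another 4 GH3 genes have a full stop between prefix and number and fall outside the letter of the rule. They are given beside it.

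The arrays compared above-ground tissue of wild-type Arabidopsis thaliana with that of the lwd1lwd2 double mutant, in which a pair of related WD-repeat proteins of the circadian clock is altered. The labels give neither the accession nor the alleles, and list no other genotype or treatment. All plants were 31 days old, had been kept under cycles of 12 h light and 12 h dark, and were collected between ZT5 and ZT9, that is 5 to 9 h after lights-on. Each genotype had 2 arrays, labelled as biological replicates. LWD1 and LWD2 were not named on the array here, so the labels were not checked against them. Of the tissue markers looked for, the leaf gene RCA, which encodes Rubisco activase, gave 27927 and 29534 in wild type against 20801 and 25786 in the mutant. These did not overlap, and the log2 difference of −0.31 did not pass (adjusted p = 0.34, limma). The root hair gene EXPA7 stayed at or below 41.5 on all arrays and the floral gene UFO at or below 6.06. Only 1 of 14 leaf, 1 of 19 root, 1 of 13 flower and 2 of 10 anther or pollen markers were named. So few markers cannot show that a tissue was absent. Of the anther markers, EMS1 gave 65.3 and 40.6 in wild type against 102.4 and 95.1 in the mutant and SPL stayed at or below 18.8. In a fit of all probe sets, the EMS1 log2 difference of 0.76 did not pass (adjusted p = 0.406, limma). The part of these marker differences in the results was not tested, and no seed marker was named. The deposited values are linear signal intensities scaled to the same trimmed mean on each array, and their median ran from 161.8 to 181.0. Replicate arrays correlated at r = 0.972 in each genotype over the tested probe sets, which are not independent of each other. The number of arrays limits the precision.

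Differences are mutant minus wild type, on the scale of log2(intensity + 16), which understates the change of dim genes. They were tested with limma across all 13647 probe sets whose mean exceeded a signal of about 91.5, and a call is an adjusted p under 0.05. Over the whole array 2.73% of tested probe sets were called higher in the mutant and 2.84% lower. Centring each array on its median turned those calls from 372 higher and 388 lower to 257 higher and 572 lower, as it moved the median difference of all tested probe sets by −0.13. Of the 25 hormone genes 10 passed the filter on low signals, and the other 15 lay below 91.5 on all 4 arrays. A gene could pass through the genotype in which it was high. In above-ground tissue as a whole, fewer cells that express a gene and less RNA per cell cannot be told apart. All arrays came from the same part of the day, so a change in level and a shift in daily timing cannot be told apart either.

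Among the 10 tested genes, RALFL33 was called higher in the mutant and none was called lower, at a background of 5.57% called in either direction. The 9 others had log2 differences between −0.33 and 0.41, with adjusted p between 0.271 and 0.789 in limma, and none of them reached an unadjusted p under 0.05. The median difference of the 10 was 0.23, beside 0.05 over all tested probe sets, and it was 0.21 with the acetyl-CoA synthetase gene left out. Without mutant replicate 2 the median of the 10 was 0.042, beside 0.038 over all. With arrays centred on their medians it was 0.10, beside −0.08. Of these 10 differences 7 were positive, as were 55.1% of those of all tested probe sets.

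**Figure D1:**
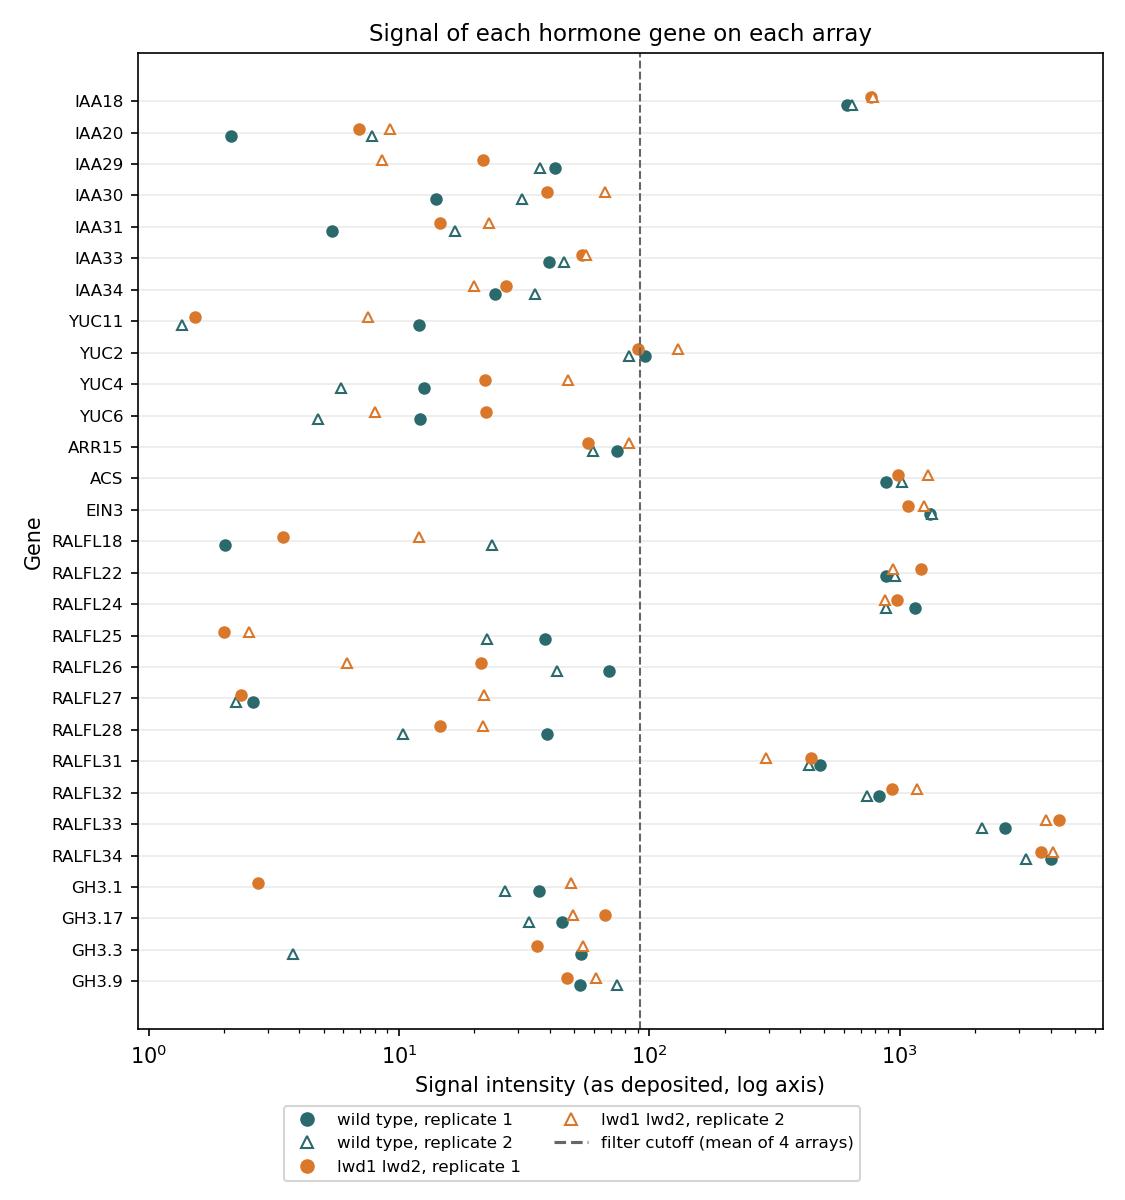
Signal intensity (log axis, as deposited) of the 25 hormone genes and the 4 GH3 genes on each array. Green marks are wild type and orange marks the mutant, with filled circles for replicate 1 and open triangles for replicate 2; the dashed line is the filter cutoff of about 91.5. In 15 of the 25 genes all 4 marks lie left of the line, and the RALFL33 marks of the mutant (3822 and 4311) lie to the right of those of wild type (2128 and 2643).

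The YUC genes encode the enzymes of the last step from tryptophan to auxin. YUC2 was the 1 member that passed the filter, with signals of 96.1 and 83.0 in wild type against 90.1 and 129.9 in the mutant. The genotypes overlapped, and the log2 difference of 0.24 had a 95% interval from −0.41 to 0.89 (adjusted p = 0.703, limma). YUC4, known for its part in leaf and flower development, stood at 12.6 and 5.89 in wild type against 22.1 and 47.2 in the mutant. Both mutant arrays were above both wild-type arrays, at signals below the filter. Fitted with no filter, YUC4 had a log2 difference of 0.97 ± 0.40 (SE) and was not called (adjusted p = 0.333). YUC6 gave 12.1 and 4.76 in wild type against 22.3 and 8.05 in the mutant, and YUC11 gave 12.0 and 1.36 against 1.53 and 7.53. For both genes, the replicates of each genotype differed by more than the genotype means, and the arrays overlapped.

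The Aux/IAA genes encode short-lived repressors that bind auxin response factors. IAA18 was the 1 member with a signal above the filter. It stood at 614.9 and 646.9 in wild type against 770.2 and 784.0 in the mutant. The mutant arrays were the higher ones, yet the log2 difference of 0.29 ± 0.18 (SE) did not pass, with a 95% interval from −0.11 to 0.70 (adjusted p = 0.413, limma).

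IAA29, a gene of shade- and warmth-induced growth, had signals of 42.2 and 36.6 in wild type against 21.7 and 8.53 in the mutant. It was the 1 Aux/IAA gene with both mutant arrays below both wild-type arrays. With no filter its log2 difference was −0.86 (95% interval −1.77 to 0.04) and it was not called (adjusted p = 0.371). IAA30 lay the other way, at 14.01 and 30.9 in wild type against 39.0 and 66.4 in the mutant, with a difference of 0.84 and an adjusted p of 0.428. IAA33 also had no overlap, at 39.7 and 45.6 against 54.0 and 55.8, but its difference of 0.28 was smaller than its standard error of 0.35. IAA20, IAA31 and IAA34 overlapped between genotypes, with differences of 0.21, 0.38 and −0.20. IAA20, IAA30, IAA33 and IAA34 encode atypical members that lack the degron through which auxin triggers removal.

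None of the 4 GH3 genes passed the filter, and their signals ran from 2.75 to 74.1. GH3.3, whose enzyme conjugates auxin and whose transcript is induced by auxin, was at 53.4 and 3.79 in wild type against 35.6 and 54.2 in the mutant. Its spread between the wild-type arrays exceeded the gap between genotypes. GH3.1 was as uneven in the mutant, at 2.75 and 48.5, against 36.3 and 26.4 in wild type. GH3.17 had both mutant arrays (66.4 and 49.8) above both wild-type arrays (44.9 and 33.2), with a difference of 0.43 ± 0.37 (SE, no filter). GH3.9 overlapped between genotypes, with a difference of −0.18.

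ARR15, a type-A response regulator that is induced by cytokinin and damps its signalling, was just below the filter. Its signals were 74.0 and 59.5 in wild type against 57.0 and 83.1 in the mutant. The wild-type arrays lay between the mutant ones, and the log2 difference of 0.05 had a 95% interval from −0.81 to 0.90 with no filter. Another 5 response regulators carry an ARR name as a synonym, a set added after the gene table was seen. Of these, RR16 was the 1 tested, with 295.3 and 247.8 in wild type against 443.3 and 360.7 in the mutant. It had no overlap, and its difference of 0.54 ± 0.22 (SE) did not pass (adjusted p = 0.194, limma). RR18, RR19, RR22 and RR23 were below the filter on all arrays and overlapped between genotypes.

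EIN3, the transcription factor that turns on ethylene-responsive genes, was at 1325 and 1346 in wild type against 1076 and 1251 in the mutant. Both mutant arrays were lower, but the log2 difference of −0.20 was near its standard error of 0.18 (95% interval −0.60 to 0.20, adjusted p = 0.583, limma). EIN3 is regulated mainly through the stability of its protein, which arrays do not measure. The acetyl-CoA synthetase gene ACS gave 879.0 and 1021 in wild type against 980.9 and 1295 in the mutant, which overlap, with a difference of 0.25 (adjusted p = 0.539).

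The RALF-like genes encode small secreted peptides that bind receptor kinases of the FERONIA family and change the pH and growth of the cell wall. RALFL33 encodes a peptide known to act on FERONIA in immune signalling. Its signals were 2643 and 2128 in wild type (mean 2386 ± 364.0, SD, n = 2) and 4311 and 3822 in the mutant (mean 4067 ± 345.6, SD, n = 2). Both mutant arrays were well above both wild-type arrays, a gap larger than that between replicates. RALFL33 rose 1.71-fold, with a log2 difference of 0.77 ± 0.18 (SE, 95% interval 0.37 to 1.17, limma adjusted p = 0.0344). The call was lost with no filter on dim probe sets (adjusted p = 0.109), after centring each array on its median (difference 0.64, adjusted p = 0.0681), when wild-type replicate 2 was dropped (0.62, adjusted p = 0.145) and when mutant replicate 1 was dropped (0.68, adjusted p = 0.113). Over all alternatives its adjusted p ran from 0.012 to 0.145 and its difference from 0.62 to 0.93. The GAPDH control probe sets for the 3′ and the 5′ end of the transcript came in 2 versions. In 1 of them the log2 difference, 3′ minus 5′, did not overlap between genotypes. It was −0.23 and −0.19 in wild type against −0.05 and 0.07 in the mutant. For 2 against 2 arrays, the chance share of no overlap is 33.3%. The other 5 of 6 such control pairs overlapped between genotypes, and the part of RNA quality in the RALFL33 difference was not tested.

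**Figure D2:**
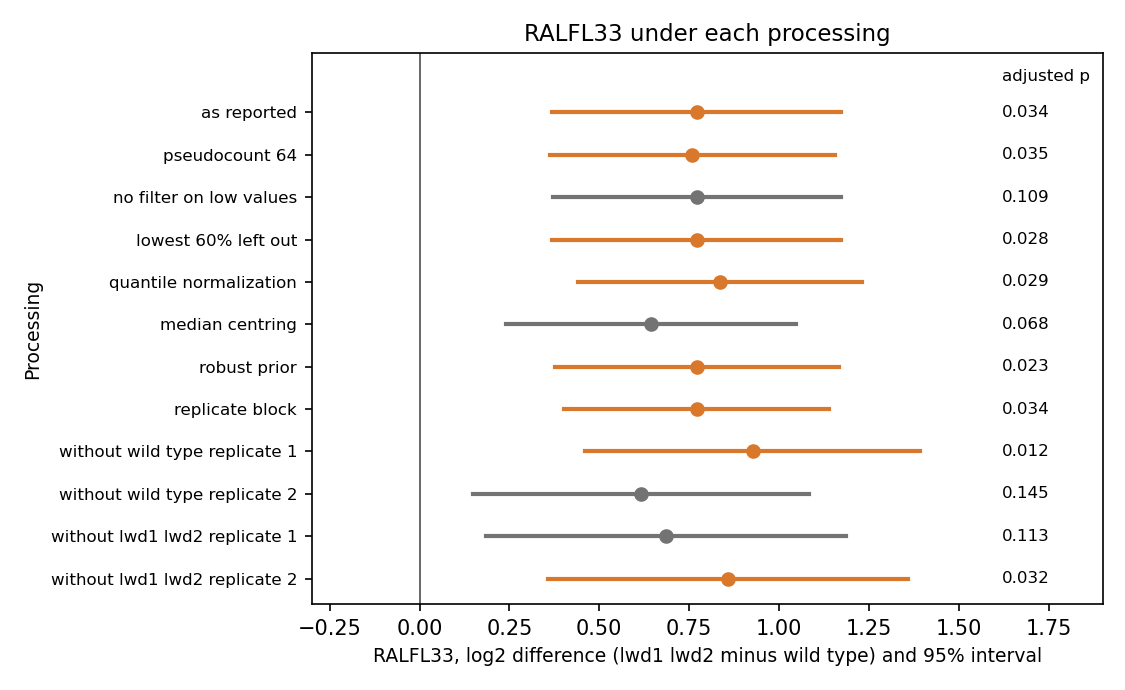
Log2 difference of RALFL33 (mutant minus wild type) with its 95% interval, as reported and under each of 11 other ways of processing, with the adjusted p at the right. Orange marks passed an adjusted p of 0.05 and grey marks did not; the difference stayed between 0.62 and 0.93, and 4 of the 11 lost the call.

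The other 5 tested RALF-like genes did not pass. RALFL32 came nearest, at 826.2 and 738.5 in wild type against 934.0 and 1167 in the mutant. Its arrays did not overlap, and its difference was 0.41 ± 0.19 (SE, adjusted p = 0.271, limma). RALFL34, a peptide known to act in lateral root formation, stood at 4003 and 3196 in wild type against 3664 and 4099 in the mutant, with a 95% interval for the log2 difference from −0.29 to 0.52. The sign of its small difference of 0.12 turned after centring each array on its median.

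RALFL31 was at 481.5 and 433.9 in wild type against 443.5 and 292.3 in the mutant. Its mutant replicate 2 stood apart from the other 3 arrays, and its difference was −0.33 ± 0.23 (SE). RALFL22 gave 883.0 and 961.4 in wild type against 1215 and 941.2 in the mutant, a difference of 0.21. RALFL24 gave 1148 and 877.3 against 978.5 and 870.3, a difference of −0.12. In RALFL22, RALFL24, RALFL31 and RALFL34 the genotypes overlapped.

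Of the 5 RALF-like genes below the filter, RALFL25 and RALFL26 were lower on both mutant arrays. RALFL25 was at 38.2 and 22.4 in wild type against 1.99 and 2.52 in the mutant. RALFL26 was at 69.3 and 42.6 in wild type against 21.2 and 6.22 in the mutant. These genes are neighbours on chromosome 3, with 0 protein-coding genes between them in the TAIR10.1 gene table. Whether their probe sets read each other's transcript was not tested, as no probe sequences were used.

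With no filter the log2 differences were −1.32 ± 0.35 for RALFL25 and −1.30 ± 0.42 for RALFL26 (SE), and neither was called (adjusted p = 0.16 and 0.241, limma). RALFL18, RALFL27 and RALFL28 overlapped between genotypes. RALFL27 was between 2.23 and 2.603 on 3 arrays and at 21.9 on mutant replicate 2. RALFL18 was at 23.5 on wild-type replicate 2 and at 2.02 on wild-type replicate 1.

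**Figure D3:**
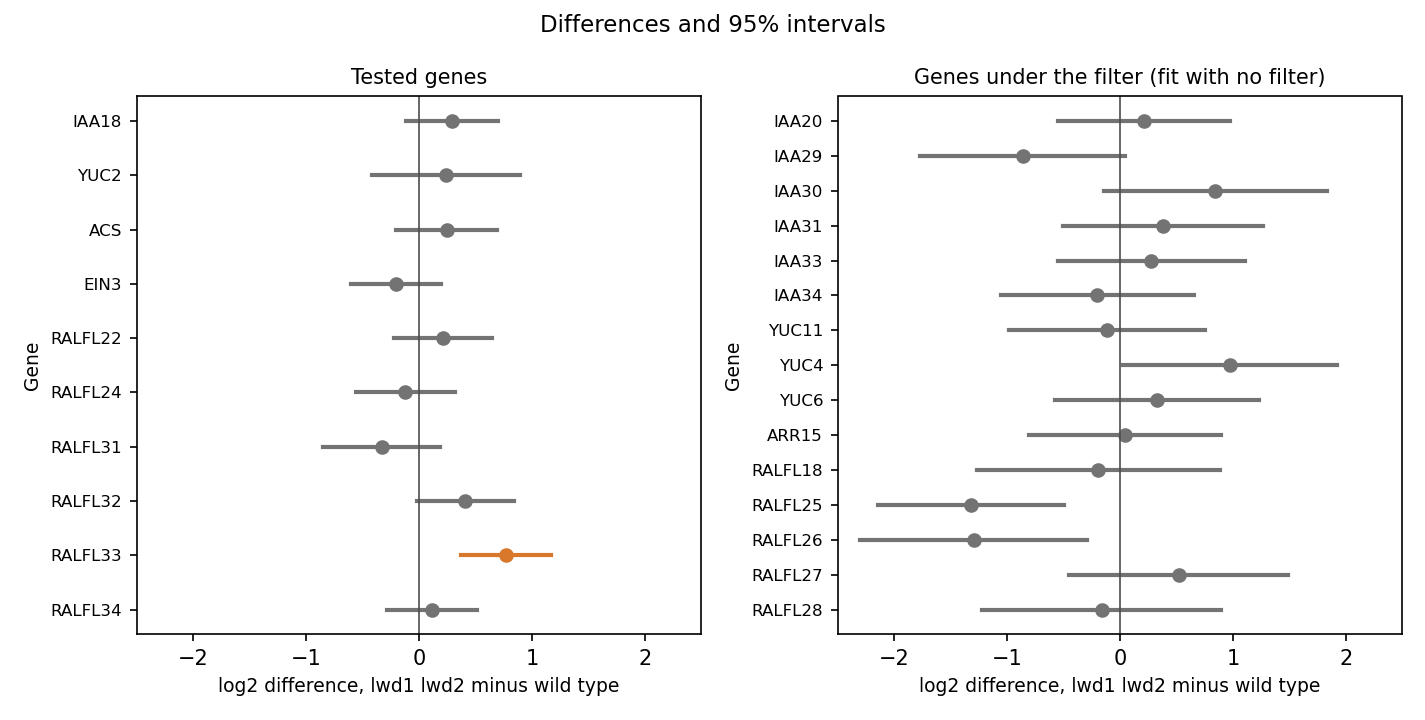
Log2 difference (mutant minus wild type) and 95% interval for the 10 tested genes (left) and for the 15 below the filter, from the fit with no filter (right). The tested genes include the acetyl-CoA synthetase gene ACS. Orange marks the gene past an adjusted p of 0.05, RALFL33 at 0.77, and grey the others; on the right the intervals of YUC4, RALFL25 and RALFL26 leave out 0 before adjustment for the number of probe sets.

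Over all 25 genes, 6 had both mutant arrays above both wild-type arrays and 4 had both below. The 6 were IAA18, IAA30, IAA33, YUC4, RALFL32 and RALFL33, and the 4 were IAA29, EIN3, RALFL25 and RALFL26. In the whole table with no filter the corresponding shares were 26.5% and 18.7%, close to what 6 and 4 of 25 amount to. Fitted with no filter, 0 of the 25 were called by limma, at a background of 1.13% called. An unadjusted p under 0.05 was reached by 5 of the 25 (YUC4, RALFL25, RALFL26, RALFL32 and RALFL33), against 14.4% of all probe sets. The median difference of the 25 was then 0.21, beside 0.06 for all probe sets, and it was 0.16 with the acetyl-CoA synthetase gene left out. The moderated standard errors were 0.18 to 0.30 for the tested genes, from the fit with the filter. Those of the genes below it, fitted with no filter, were 0.32 to 0.46.

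Other genes of the hormone pathways were taken from 10 lists with 347 entries, of which 27 genes had a named probe set and 20 passed the filter. Of the 20, limma called 2 higher and none lower, beside the background of 5.57% called, and the median difference was 0.0032. The lists were chosen with earlier results of these data known, so this comparison cannot show that they differ from the background. At an unadjusted p under 0.05, 4 of the 20 were higher (EXO, ORA47, THI2.1 and THE1) and 0 lower, where 19.9% of all tested probe sets reached it in either direction. EXO, a cell expansion gene induced by brassinosteroid, had signals of 331.8 and 233.9 in wild type against 2766 and 1590 in the mutant, and rose 7.17-fold (adjusted p = 2.67e-04, limma). It was the 1 tested gene of the brassinosteroid list, where BRL1, a receptor, was below the filter with a difference of −0.02.

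ORA47, a transcription factor of jasmonate synthesis, was at 128.4 and 101.1 in wild type against 280.6 and 250.4 in the mutant. It rose 2.16-fold (adjusted p = 0.0249), as 1 of 7 tested jasmonate genes, and lost its call with no filter (adjusted p = 0.127), when wild-type replicate 2 was dropped (0.0964) or mutant replicate 1 (0.0858). THI2.1, a thionin gene induced by jasmonate, had wild-type signals of 445.6 and 72.6 and mutant signals of 664.6 and 462.5. Its difference of 1.50 did not pass (adjusted p = 0.166, limma). It was 2.69 without wild-type replicate 1 (adjusted p = 7.6e-06) and 0.31 without wild-type replicate 2 (adjusted p = 0.649). The transcription factors MYC3 and MYC4, the enzymes OPCL1 and JMT and the defensin PDF1.2 had differences between −0.25 and 0.22, none past the threshold.

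Of the receptors of RALF peptides, FER (FERONIA) was at 1181 and 1339 in wild type against 1373 and 1220 in the mutant. Its genotypes overlapped, and the log2 difference was 0.04 with a 95% interval from −0.36 to 0.44. THE1, a related receptor that binds the RALF34 peptide, was at 262.8 and 288.3 in wild type against 516.7 and 440.6 in the mutant. The mutant arrays were the higher ones, with a difference of 0.76 ± 0.21 (SE) that did not pass (adjusted p = 0.059, limma). It passed under a robust prior for the variance (adjusted p = 0.0487) and with the lowest 60% of probe sets left out (0.0477), and its adjusted p ran from 0.0477 to 0.204 over all alternatives. The pollen tube receptors ANX1 and ANX2 were at or below 20.8 on all arrays. S1P, the protease that matures the RALF23 precursor, had a difference of −0.03.

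In the remaining lists no gene passed. The strigolactone list had no gene named by a probe set and was not tested. The cytokinin glucosyltransferases UGT76C1 and UGT76C2 had differences of −0.29 and 0.13. SLY1, SEC and SPY of gibberellin signalling had −0.21, −0.14 and 0.16, in that order. XERICO, a regulator of abscisic acid level, was at 802.9 and 689.3 in wild type against 469.4 and 740.4 in the mutant, with overlap. Its difference of −0.33 became −0.0068 when mutant replicate 1 was dropped and −0.65 when mutant replicate 2 was dropped. ETP2 and RTE1 of ethylene signalling had −0.15 and −0.10. SAG101 of the salicylic acid list had 0.05, and both auxin genes named, UGT84B1 and WAG2, were below the filter.

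**Figure D4:**
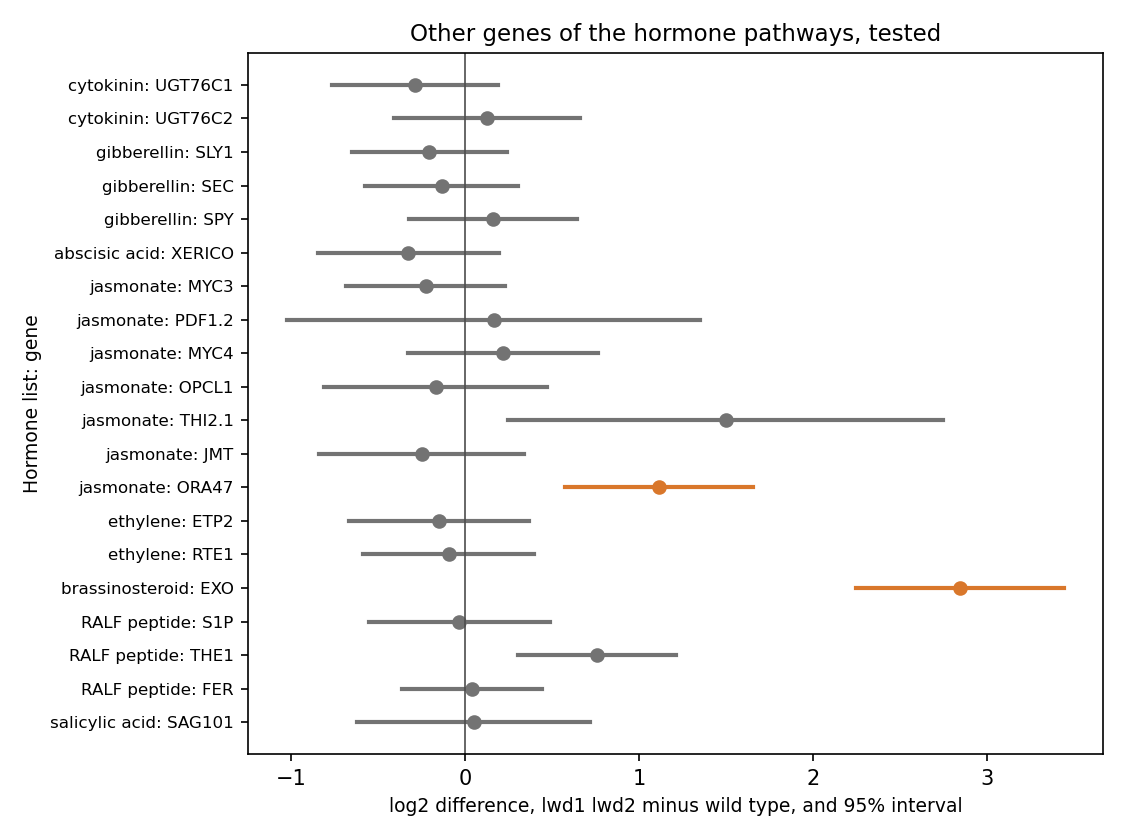
Log2 difference (mutant minus wild type) and 95% interval for the 20 tested genes from the other pathway lists, each labelled with its list. Orange marks EXO (2.84) and ORA47 (1.11), which passed an adjusted p of 0.05; THE1 (0.76) and THI2.1 (1.50), in grey, did not.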

How the data were processed

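RNA from 2 wild-type and 2 lwd1lwd2 samples was measured on Affymetrix arrays after conversion of 10 µg of total RNA to biotin-labelled cRNA, per the labels' protocols. The authors deposited linear intensities, 1 per array for 22810 probe sets. How they were computed is not stated in the labels. After trimming 2% from both ends, all arrays had a mean of 500.05. They had thus been scaled alike, which hides a change in total mRNA. No detection calls were used.

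Intensities were analysed as log2(intensity + 16), without the 64 control probe sets and the 40% with the lowest mean over all arrays. Genotype was fitted with limma 3.58.1 in R 4.3.3 (lmFit and eBayes with an intensity trend, 2 residual degrees of freedom), and two-sided p-values were adjusted by Benjamini-Hochberg across every tested probe set. The test was also run on simulated arrays. Their spread was smoothed over probe sets of like signal, so its behaviour under gene-specific spread was not checked. Intervals are unadjusted. The variance of each probe set was moderated toward that of probe sets of like intensity, with 8.64 prior degrees of freedom. The p-values thus rest on that shared variance as well as on the spread between these samples. Figures used matplotlib 3.10.9.

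Probe sets were named by a probe table (13513 probe sets with 1 gene, 503 with several, 8730 unlisted), updated through the TAIR10.1 gene table, which held 24 of the 25 members, all but RALFL22. Transcripts of close paralogs may be read by the same probe set.

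The members, lists and tests were chosen with earlier results of these data known. All members are described. Other pathway genes were to be named if called or if they had the largest difference of their list. The rest were added after their values were seen.

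The alternatives were an offset of 64, no filter, a filter of 60%, quantile normalization, median centring, a robust prior, the replicate number as a block, each array left out, the probe table's own symbols and added GH3 or response regulator genes.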

Additional observations from a re-analysis of the deposited data

How the results depend on the processing

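Among the 25 hormone genes, 1 was called higher as reported, 0 with no filter or after median centring, and 0 to 1 with 1 array left out (0 without wild-type replicate 2 or mutant replicate 1). No alternative called any of them lower. Over the whole array 760 probe sets were called as reported and 258 with no filter. The median difference of the tested hormone genes was 0.23 as reported, 0.10 after median centring and 0.042 to 0.25 with 1 array left out, the lowest value without mutant replicate 2. The sign turned for RALFL34 after median centring (−0.012), and for SAG101 after quantile normalization (−0.13) and median centring (−0.079). With 1 array left out, RALFL24 ran from −0.31 to 0.072, RALFL34 from −0.047 to 0.28 and SAG101 from −0.23 to 0.32. The cause was not tested. The single-gene refits covered the 10 tested hormone genes, RR16 and 9 other pathway genes (UGT76C1, SLY1, XERICO, THI2.1, ORA47, ETP2, EXO, THE1 and SAG101). Over these 20 genes and 216 refits, 198 kept direction and call, 7 lost a call, 4 gained one and 7 changed direction. With the replicate number as a block, RALFL33 kept its call (adjusted p = 0.0343, limma) and 676 probe sets were called in all. The deviations of same-numbered arrays correlated at r = 0.09 over the tested probe sets, and the labels do not say whether a number marks a shared batch or day, so no pairing was assumed. A fit without 1 array assumes that the lone array varies like the other group. The dim signals of 15 of the 25 genes limit what could be detected.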
